A study of Drosophila melanogaster with 3 samples.

Results

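Binding of Pipsqueak (Psq) was examined at 8 genes of the insulin and target of rapamycin (TOR) growth pathway, namely InR, chico, Pi3K92E, foxo, Thor, Tor, S6k and ImpL2. The members are a fixed list of gene names out of 13945 protein-coding genes annotated on the nuclear arms (X, 2L, 2R, 3L, 3R and 4). A summit, the highest point of a peak, was counted for a gene when it lay in the gene's span or within 5 kb of either end. The larvae, at the wandering stage of the third instar and of pooled sex, came from a transgenic line that stably carries psq joined to a C-terminal eGFP. Chromatin from whole animals was sonicated and precipitated with an antibody against GFP in 3 biological replicates. The series has 1 group, so no contrast between conditions exists and none was tested. Neither the driver of the transgene nor the state of the native psq gene is stated in the labels.

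Insulin-like peptides in the fly activate the receptor InR, which recruits the adaptor Chico and the lipid kinase Pi3K92E. Downstream kinases hold the forkhead factor Foxo in the cytoplasm and activate the Tor kinase, which promotes growth through S6k. When insulin is low, nuclear Foxo is known to raise transcription of Thor, a repressor of translation, and of InR itself. ImpL2 is a secreted protein that binds insulin-like peptides and dampens the signal. Psq is a BTB-domain protein known to bind GA-repeat DNA.

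The deposited lists held 28037, 28294 and 24291 peaks in replicates 1, 2 and 3, and the authors' optimal list held 10138, of which 10105 lay on the 6 arms. Read depth is unknown for these lists, so a missing peak says that none was called at the depth reached. Each peak carries the authors' score, used here to rank peaks within a list. A relative score is a peak's score in a replicate divided by the median score of the 10138 highest-scoring peaks of that replicate, its strongest list. A value of 1 is thus a middling strong peak. In whole larvae, strong binding in few cells and weak binding in many cannot be told apart.

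Of the 8 genes, 5 (62.5%) carried 43 optimal summits and the other 3 carried none. InR held 18, foxo 14, ImpL2 6, S6k 3 and Thor 2. No optimal summit was found at chico, Pi3K92E or Tor. Of all protein-coding genes, 49.6% had an optimal summit in the span plus 5 kb, so the number of bound members alone does not set them apart. All 5 bound members, and so 5 of the 8, also had a summit within 1000 bp of one of their own transcription start sites (TSSs). Among all 13945 protein-coding genes, bound or not, 4003 (28.7%) had one. Those 4003 are among the 6919 genes with a summit in the span plus 5 kb.

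The DNA under the summits on which these results turn is shown next, as 201 bases of the dm6 plus strand centred on each summit, from the RefSeq copy of the assembly. Capitals mark GAGAG or its reverse complement CTCTC. For each bound gene the sequence is that of the highest-scoring summit within 1000 bp of a TSS of that gene. At InR this summit, labelled by the upstream TSS pair, lies in an intron 529 bp downstream of a TSS. Its window holds neither TSS of the pair. InR and foxo have in addition their highest-scoring summit of all, which lies in an intron in both. The windows are 3R:21605473-21605673 and 3R:21618407-21618607 for InR, and 3R:14056824-14057024 and 3R:14061682-14061882 for foxo. Those of Thor, S6k and ImpL2 are 2L:3478367-3478567, 3L:5810799-5810999 and 3L:4227205-4227405.
InR, intron summit: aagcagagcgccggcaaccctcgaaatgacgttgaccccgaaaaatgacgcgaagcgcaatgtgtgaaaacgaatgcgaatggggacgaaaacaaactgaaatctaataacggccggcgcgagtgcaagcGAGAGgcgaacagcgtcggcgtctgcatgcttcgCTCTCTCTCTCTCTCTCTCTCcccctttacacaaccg
InR, upstream TSS pair: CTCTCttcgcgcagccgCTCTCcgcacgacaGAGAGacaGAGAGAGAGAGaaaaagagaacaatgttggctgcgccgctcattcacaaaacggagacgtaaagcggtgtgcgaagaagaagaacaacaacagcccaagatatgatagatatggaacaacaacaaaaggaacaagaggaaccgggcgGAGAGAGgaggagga
foxo, promoter summit: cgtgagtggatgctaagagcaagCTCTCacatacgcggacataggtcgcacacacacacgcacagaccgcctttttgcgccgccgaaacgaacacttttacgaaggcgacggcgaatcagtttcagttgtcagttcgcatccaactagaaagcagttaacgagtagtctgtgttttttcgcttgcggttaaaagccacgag
foxo, intron summit: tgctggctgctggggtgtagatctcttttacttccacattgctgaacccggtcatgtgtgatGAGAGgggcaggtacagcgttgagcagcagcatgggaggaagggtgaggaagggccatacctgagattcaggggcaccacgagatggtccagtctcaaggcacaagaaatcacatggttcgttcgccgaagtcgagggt
Thor, promoter summit: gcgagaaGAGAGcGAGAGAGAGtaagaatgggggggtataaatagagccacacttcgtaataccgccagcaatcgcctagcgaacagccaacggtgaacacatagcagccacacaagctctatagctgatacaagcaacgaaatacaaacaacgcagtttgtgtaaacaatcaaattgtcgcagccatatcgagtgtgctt
S6k, promoter summit: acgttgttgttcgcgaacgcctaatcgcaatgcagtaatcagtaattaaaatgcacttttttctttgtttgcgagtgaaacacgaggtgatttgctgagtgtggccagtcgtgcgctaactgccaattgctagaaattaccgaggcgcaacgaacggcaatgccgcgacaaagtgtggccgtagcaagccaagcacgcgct
ImpL2, promoter summit: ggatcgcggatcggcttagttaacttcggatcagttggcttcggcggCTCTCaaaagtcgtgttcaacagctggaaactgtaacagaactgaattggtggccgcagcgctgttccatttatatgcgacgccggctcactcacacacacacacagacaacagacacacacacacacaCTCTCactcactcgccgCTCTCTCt

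InR (3R:21570248-21619321, minus strand), the insulin receptor gene, was the most heavily bound member. Its strongest peak (3R:21605205-21605993) lay in an intron, 13452 bp from the nearest InR TSS, and ranked 43 among the 10105 nuclear peaks. Its relative score was 12.6, 10.5 and 9.93 in replicates 1, 2 and 3 (11.0 ± 1.39, SD, n = 3). The window held 10 overlapping occurrences of GAGAG, most of them in a single CT tract near one end of the window. The neighbouring peak (3R:21606593-21607127), rank 91, reached 7.96, 7.75 and 6.52 (7.41 ± 0.779, SD, n = 3). These peaks belong to a run of 6 summits within 5 kb, between 3R:21604731 and 3R:21608569. Of the 10105 windows of 5 kb that begin at an optimal summit, 737 held as many or more.

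The 4 annotated InR TSSs form an upstream pair and a downstream pair, and 26.9 kb separate the inner 2. The space between them held 13 of the 18 summits, not counting summits within 100 bp of a TSS. All 4 TSSs had a summit within 1000 bp. A summit 12 bp from the most upstream TSS (3R:21619179-21619534) scored 4.62, 4.61 and 4.62 in the replicates (4.62 ± 0.0049, SD, n = 3), the closest agreement between replicates among the 43. No GAGAG lay within 100 bp of this promoter summit. A second summit (3R:21618307-21618667), 529 bp downstream of the next TSS, scored 6.39, 4.87 and 4.46 (5.24 ± 1.02, SD, n = 3) and held 9 occurrences of GAGAG. The downstream pair was bound more weakly. The summit 10 bp from the TSS at 3R:21592121 scored 0.973, 1.36 and 0.998 (1.11 ± 0.216, SD, n = 3), below every replicate value at the upstream pair.

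Around the last InR TSS, 3R:21590191, the replicates placed their summits differently. The strongest summit of each replicate within 200 bp of the optimal summit, which lies 109 bp from this TSS, scored 2.25, 1.25 and 1.08 (1.53 ± 0.636, SD, n = 3). Replicates 2 and 3 had a weaker summit nearer to it, at 0.293 and 0.385. With these nearest matches, the rule for values here unless stated, the mean is 0.977 ± 1.11 (SD, n = 3). All 18 InR summits had a summit within 200 bp in the strongest list of every replicate, and each replicate's strongest list placed 19 summits at the gene. The intron summit at 3R:21599813 also had close scores in the replicates, at 2.48, 2.40 and 2.53 (2.47 ± 0.0705, SD, n = 3). By nearest TSS of any gene, 6 of the 18 summits fell to InR and the others to lncRNA:Irar or lncRNA:CR44034, both of which lie within its span. The peak 3R:21605205-21605993 is listed with a second summit 203 bp away, which shares its replicate 3 value of 9.93 with the first.

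**Figure D1:**
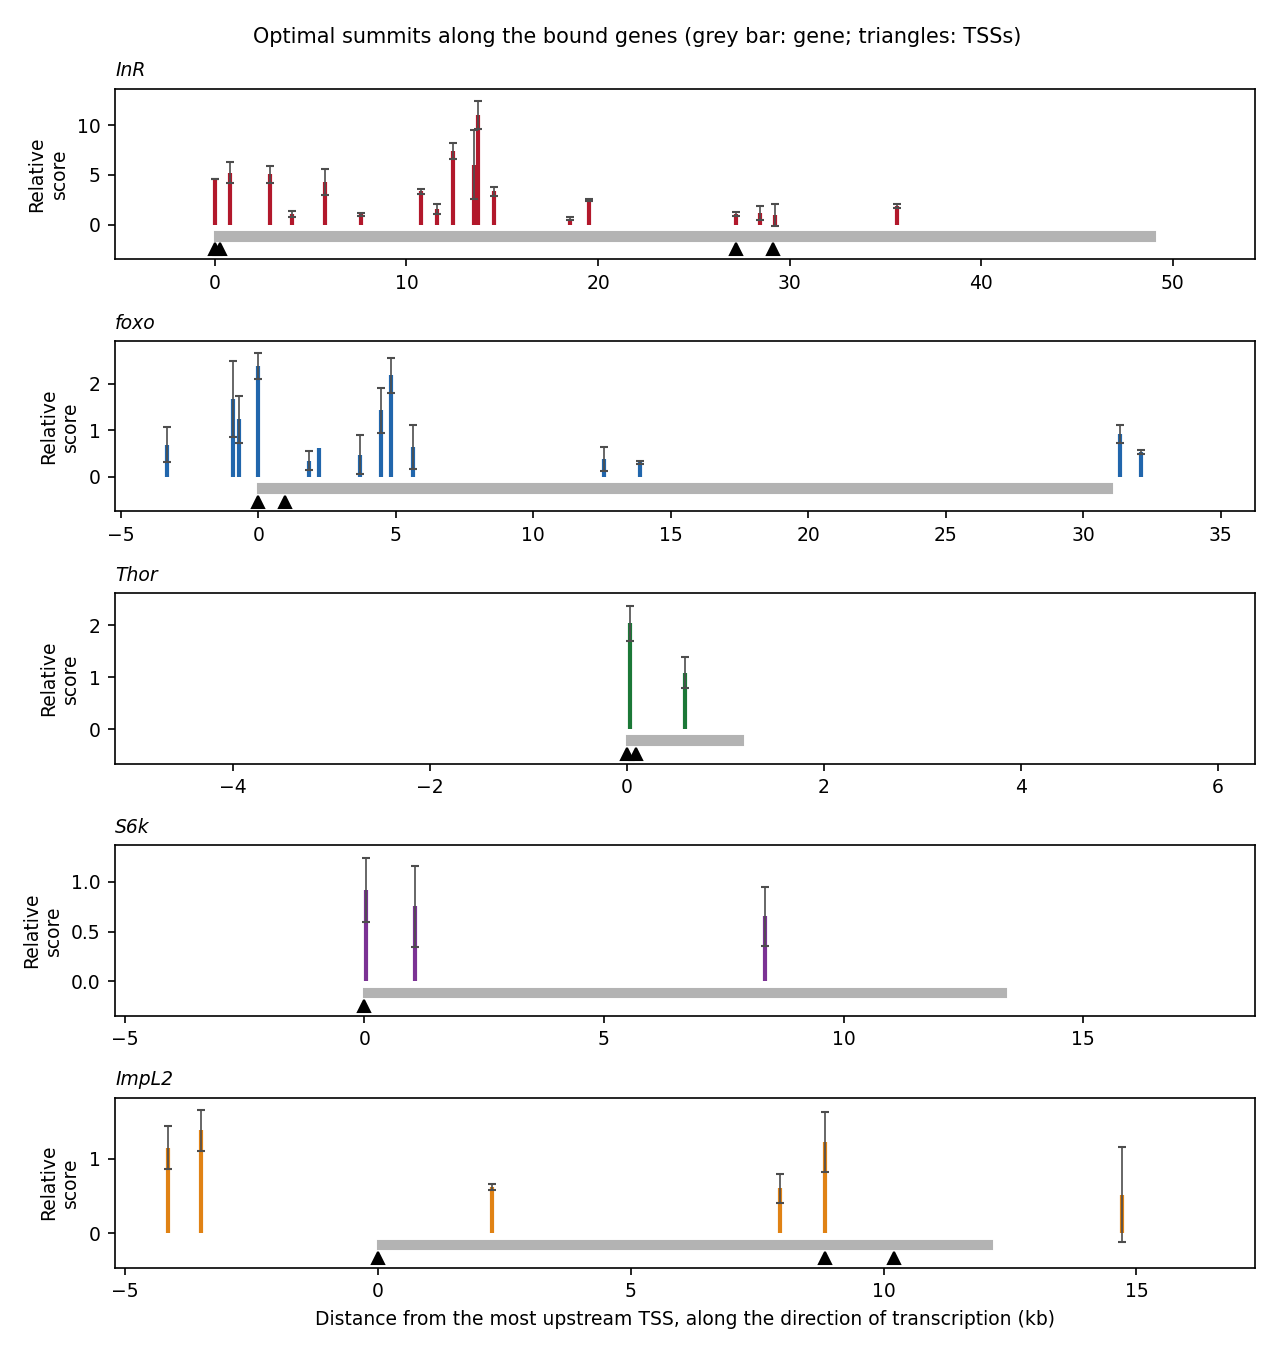
Optimal summits along the 5 bound genes, drawn from the most upstream TSS in the direction of transcription (kb); lines give the mean relative score over the replicates with a summit within 200 bp (the nearest), bars the SD, the grey bar the gene and triangles its TSSs. InR is bound mainly between its TSS pairs, with a maximum of 11.0, whereas most foxo summits crowd around the start of the gene.

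Summits at foxo (3R:14056945-14087978, plus strand), the gene of the forkhead factor, were many but weak. Of its 14 summits, 10 lay within 6000 bp of its most upstream TSS. The strongest by optimal score (3R:14061647-14061960, rank 1388) lay in an intron 3863 bp downstream of the second TSS and scored 1.82, 2.15 and 2.58 (2.18 ± 0.377, SD, n = 3). The promoter summit, 21 bp from the most upstream TSS, scored 2.09, 2.63 and 2.44 (2.39 ± 0.271, SD, n = 3). These 2 differed by less than their SD. The foxo peak next in rank to these (3R:14061246-14061509) scored 0.877, 1.75 and 1.66 (1.43 ± 0.482, SD, n = 3).

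A pair of foxo summits upstream of the promoter, 899 and 697 bp from the TSS, matched a single summit in replicates 2 and 3. The one at 3R:14056046 scored 2.52, 1.60 and 0.886 in the replicates (1.67 ± 0.821, SD, n = 3), and its window held 5 occurrences of GAGAG. The summits at foxo had a median relative score of 0.669, against 2.90 at InR. In only 4 of the 14 was there a strongest-list summit of every replicate within 200 bp, against 18 of 18 at InR. The gene body beyond 3R:14070821 held none. The 2 summits beyond its 3′ end, at 0.922 ± 0.198 and 0.542 ± 0.0456 (SD, n = 2 each), were nearest to the TSS of the neighbouring Npc2b.

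Thor (2L:3478434-3479612, plus strand), which encodes a translation repressor acting on eIF4E, had a promoter peak. The summit lay 33 bp downstream of the first TSS (2L:3478402-3478590, rank 2069) and scored 2.04, 2.37 and 1.69 (2.04 ± 0.34, SD, n = 3). Its window held GAGAG 4 times, just upstream of the TSS, and 1 copy of TGTTTAC, the core of the Foxo site, on the minus strand. A second summit 506 bp from the TSS at 2L:3478522 had no match in replicate 1 and scored 0.873 and 1.29 in replicates 2 and 3 (1.08 ± 0.298, SD, n = 2).

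At S6k (3L:5797549-5810931, minus strand), the gene of the kinase that phosphorylates ribosomal protein S6, the promoter was bound at a modest level. The summit 32 bp from its TSS (3L:5810767-5811030, rank 5361) scored 1.06, 1.15 and 0.552 (0.92 ± 0.323, SD, n = 3). Its 201 bases held no GAGAG. A summit in the gene body at 3L:5802571, with 0.412, 0.987 and 0.561 (0.653 ± 0.298, SD, n = 3), is a promoter summit of CG42272, 462 bp from a TSS of that gene. The remaining one, 1059 bp from the S6k TSS, was found in replicates 1 and 2 only, at 0.466 and 1.04 (0.753 ± 0.407, SD, n = 2).

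ImpL2 (3L:4224006-4236147, minus strand), the gene of the secreted insulin antagonist, was bound at 1 of its 3 TSSs. The summit lay 3 bp from the TSS that 2 of its transcripts share with CG46460 (3L:4227222-4227374, rank 3876) and scored 0.9, 1.67 and 1.09 (1.22 ± 0.401, SD, n = 3). Another summit, 890 bp upstream of the same TSS (3L:4228145-4228248, rank 6353), scored 0.424, 0.803 and 0.572 in replicates 1, 2 and 3. A summit inside the gene, 2249 bp downstream of the most upstream TSS, was weak but even, at 0.577, 0.665 and 0.62 (0.621 ± 0.0438, SD, n = 3), and held GAGAG 6 times. The highest-scoring peak counted for the gene (3L:4240295-4240370, rank 3700) lay 10 bp from a TSS of the neighbour Sqor and scored 1.26, 1.36 and 0.818 (1.15 ± 0.289, SD, n = 3). A second summit beside Sqor, at 3L:4239645, scored 1.56, 1.52 and 1.06 (1.38 ± 0.273, SD, n = 3). At 3L:4221439, in the downstream flank, the nearest summits of the replicates scored 0.106, 0.19 and 1.25. Replicate 1 had a stronger one within 200 bp, at 0.795, with which the mean is 0.744 ± 0.531 (SD, n = 3).

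**Figure D2:**
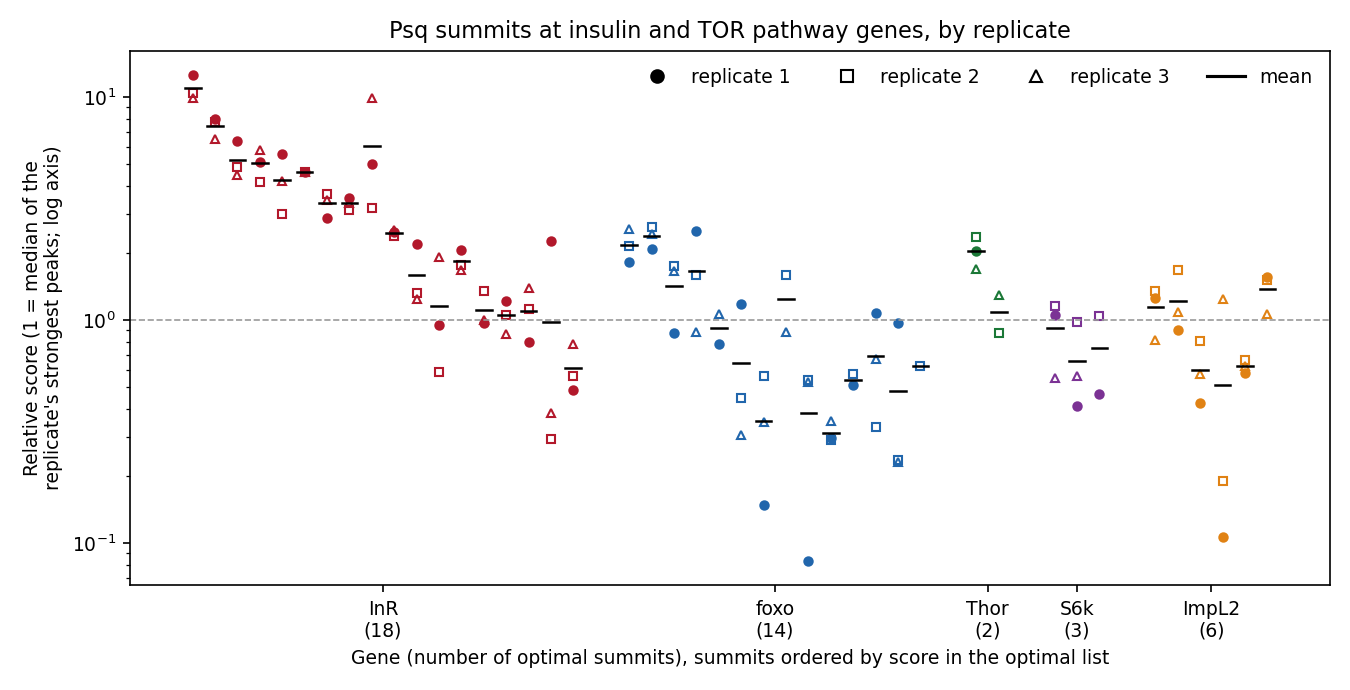
Relative score of the nearest summit within 200 bp of each of the 43 optimal summits in replicates 1, 2 and 3 (log axis; 1 is the median of a replicate's strongest list), by gene, with a black line at the mean over the replicates that held a summit within 200 bp. The strongest InR summit lies at 9.93 to 12.6 in the replicates, above every value at the other genes.

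Ordered by their highest-scoring summit, the bound genes were InR (11.0 ± 1.39), foxo (2.18 ± 0.377), Thor (2.04 ± 0.34), ImpL2 (1.15 ± 0.289) and S6k (0.92 ± 0.323; SD, n = 3 each). InR stood above foxo in every replicate. The values of foxo and Thor differed by less than their SD, and so did those of ImpL2 and S6k. The ImpL2 value in this order is that of the summit beside Sqor. At the TSS shared with CG46460, the ImpL2 promoter summit had a highest replicate value of 1.67, and the Thor promoter summit a lowest of 1.69. Of the 43 summits, 9 ranked within the first 1010 of the 10105 nuclear peaks, and all 9 were at InR.

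The genes without a summit were chico (2L:10242512-10247078), Pi3K92E (3R:20628972-20634732) and Tor (2L:13004480-13013197, named mTor in the annotation). At chico and Tor no summit lay in the span plus 5 kb in any replicate's full list or in the list of 30000 peaks called on the replicates together, which also hold background. The gene chico encodes the insulin receptor substrate. Around Tor, the nearest optimal summit was 30.1 kb from the span, at Vha68-2.

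Pi3K92E, the gene of the PI3K catalytic subunit, had a promoter summit in 1 replicate. In replicate 2 a summit lay 1 bp from its TSS with a relative score of 1.38, rank 3435 in that list. A weaker one lay 357 bp from the TSS (0.223). Replicates 1 and 3 had no summit in the span plus 5 kb. The nearest optimal summit was 7.06 kb from the span, at a TSS of Hairless (H), a repressor of Notch targets.

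The DNA around the TSSs of these unbound genes is shown for contrast, as 201 bases of the sense strand centred on the TSS (2L:10246978-10247178 for chico, 3R:20634632-20634832 for Pi3K92E and 2L:13004380-13004580 for Tor). Capitals mark GAGAG or CTCTC at chico and TATCGATA, the site of the DREF factor, at Pi3K92E.
chico TSS: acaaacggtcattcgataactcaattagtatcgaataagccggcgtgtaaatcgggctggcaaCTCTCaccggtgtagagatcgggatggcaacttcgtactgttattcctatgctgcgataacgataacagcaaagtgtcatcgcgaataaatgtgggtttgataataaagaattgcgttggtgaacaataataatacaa
Pi3K92E TSS: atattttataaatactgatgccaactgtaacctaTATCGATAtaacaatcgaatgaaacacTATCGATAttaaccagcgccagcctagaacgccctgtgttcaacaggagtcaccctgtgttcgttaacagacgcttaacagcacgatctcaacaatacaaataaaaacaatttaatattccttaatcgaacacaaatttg
Tor TSS: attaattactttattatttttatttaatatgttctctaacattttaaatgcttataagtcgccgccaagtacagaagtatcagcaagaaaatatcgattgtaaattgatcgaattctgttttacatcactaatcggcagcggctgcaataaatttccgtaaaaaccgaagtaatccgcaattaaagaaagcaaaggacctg

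The chico window held GAGAG once, and those of Pi3K92E and Tor held none. Over all 15 TSSs of the members, 9 had GAGAG within 100 bp, against 25.0% of 19252 TSSs of protein-coding genes. At Thor it occurred 6 times around the first TSS, and at ImpL2 3 times around the bound TSS. The S6k TSS, which was bound, had none. TATCGATA occurred at the TSS of Pi3K92E alone, with 2 copies, and at 6.45% of the TSSs of protein-coding genes. A match of letters describes these windows and is not a measured site.

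The number of summits followed gene length in part. InR, of 49.1 kb, ranked 53 by number of summits among 13945 protein-coding genes, and foxo, of 31.0 kb, ranked 92. Of 246 other genes with a span of 0.8 to 1.25 times that of InR, 13 had more summits, and the median was 2. For foxo 14 of 336 such genes had more (median 2), and for ImpL2 70 of 671 (median 2). All these counts include the flanks. Within the span itself lay 8 of the 14 summits of foxo and 3 of the 6 of ImpL2. S6k was closer to its like, with 179 of 610 having more (median 2). No summit at all was common at the size of chico (42.9% of 1408 genes), Pi3K92E (41.4% of 1198) and Tor (36.7% of 788). Per 10 kb of span and flanks, InR had 3.05 summits and foxo 3.41. By this density InR stood above 91.1% of protein-coding genes and foxo above 93.0%.

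**Figure D3:**
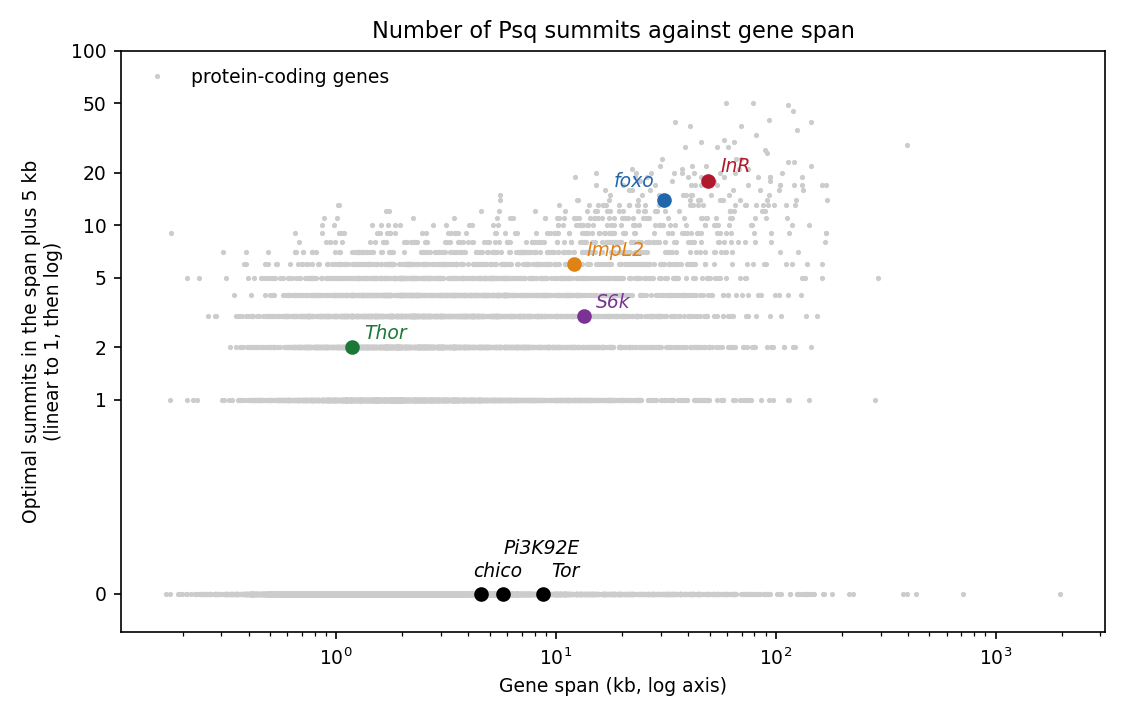
Optimal summits in the span plus 5 kb against gene span (log axis) for 13945 protein-coding genes (grey) and the 8 members (coloured; black where none was found). InR (18) and foxo (14) lie above most genes of their length, while chico, Pi3K92E and Tor lie at 0.

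Summits of the members lay more in introns and less in promoters than those of the series as a whole. Introns held 27 of the 43 (62.8%) and 38.4% of all 10105 nuclear summits, whereas promoters, within 500 bp of any TSS, held 11 (25.6%) and 44.1%. This difference was not tested, since 14 of the 27 intron summits are from InR and summits of 1 gene are not independent. Of the 43 summits, 28 (65.1%) had a match in the strongest list of every replicate, against 58.3% of all summits. These 28 were mostly from InR, with 18 of 18 there, 4 of 14 at foxo, 4 of 6 at ImpL2, 1 of 3 at S6k and 1 of 2 at Thor. The strongest lists placed 38, 42 and 45 summits at the members in replicates 1, 2 and 3 (41.7 ± 3.51, SD, n = 3).

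GAGAG was found within 100 bp of 23 of the 43 summits (53.5%), against 45.3% of all nuclear summits. It was in 13 of 18 windows at InR, 5 of 14 at foxo, 2 of 6 at ImpL2, 2 of 3 at S6k and 1 of 2 at Thor. Within 50 bp of the summit the order turned, at 23.3% for the members and 28.5% for all summits. The longer repeat GAGAGAGA, which contains GAGAG, was in 8 of the 43 windows (18.6%) and in 8.65% of all. Most of these 8 windows were at InR, and 2 of them came from the single peak 3R:21605205-21605993. Member summits with GAGAG had a median relative score of 1.67, and those without it 0.921. These sets differ in their genes. Of the 23 with GAGAG, 13 were at InR, where the median over all summits was 2.90. Within InR, the summits without GAGAG scored 0.609, 1.59, 3.34, 4.26 and 4.62, and those with it 0.977 to 11.0. Whether the word goes with score apart from the gene was not tested. CACACACA was in 4 windows (9.3% against 14.7%) and TATCGATA in none (0% against 2.89%). The Foxo core TGTTTAC was in 2 windows, those of the Thor promoter and of the summit 109 bp from the last InR TSS (4.65% against 5.52%). All words were sought on either strand.

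The rest of the pathway was described by a list of 47 further genes, of which 24 (51.1%) had an optimal summit within 1000 bp of a TSS and 33 (70.2%) in the span plus 5 kb. These shares stand beside 28.7% and 49.6% of all protein-coding genes. The list was chosen with earlier results of these data known, and the genes it is set beside were not matched for span. Neither the difference from all genes nor that between roles was tested. The shares differed by role. All 5 listed genes of the PI3K branch had a summit near a TSS, as did all 5 listed of the energy and stress branch. Of the 8 genes for insulin-like peptides 1 did, of 5 TOR complex genes 1, and of the 3 genes Tsc1, gig and Rheb none.

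In the PI3K branch the strongest was Pi3K21B, which encodes the regulatory partner of Pi3K92E. Its promoter peak (2L:297736-298001, rank 207) scored 5.46, 6.20 and 5.64 (5.77 ± 0.387, SD, n = 3), above the single value of 1.38 at Pi3K92E. Pdk1, the kinase gene that acts next, followed with a summit 2 bp from a TSS (4.45 ± 0.423, SD, n = 3). Among the ligands, Ilp6, which encodes an insulin-like peptide of the fat body, had a weak promoter peak at 0.509 ± 0.291 (SD, n = 3). Sdr, a secreted decoy receptor of insulin-like peptides, reached 1.94 ± 0.498, and the adaptor gene dock 2.26 ± 1.09, at a peak nearer to CG3862 (SD, n = 3 each).

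Nearer to Tor, the strongest peak belonged to REPTOR, a transcription factor gene whose product TOR holds in the cytoplasm. Its summit, 849 bp from a TSS (3R:24581859-24582222, rank 99), scored 7.46, 7.02 and 7.44 (7.31 ± 0.247, SD, n = 3). Lk6, a kinase gene acting on eIF4E, was second among the downstream genes by optimal score, with 2.34 ± 0.645 (SD, n = 3). By mean relative score, Atg1 (2.68 ± 1.04) and eIF4E1 (2.39 ± 1.04) stood above Lk6, by less than their SD (n = 3 each). The stress-induced TOR inhibitor gene scyl (3.97 ± 0.426) and SNF4Agamma, which encodes a subunit of AMP-activated kinase (3.38 ± 0.802), led the energy and stress branch. The amino acid branch was led by the sestrin gene Sesn (2.29 ± 0.0871) and mio (1.73 ± 0.595), and PRAS40 was the gene of the TOR complexes with a summit near a TSS (1.99 ± 1.28; SD, n = 3 each).

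**Figure D4:**
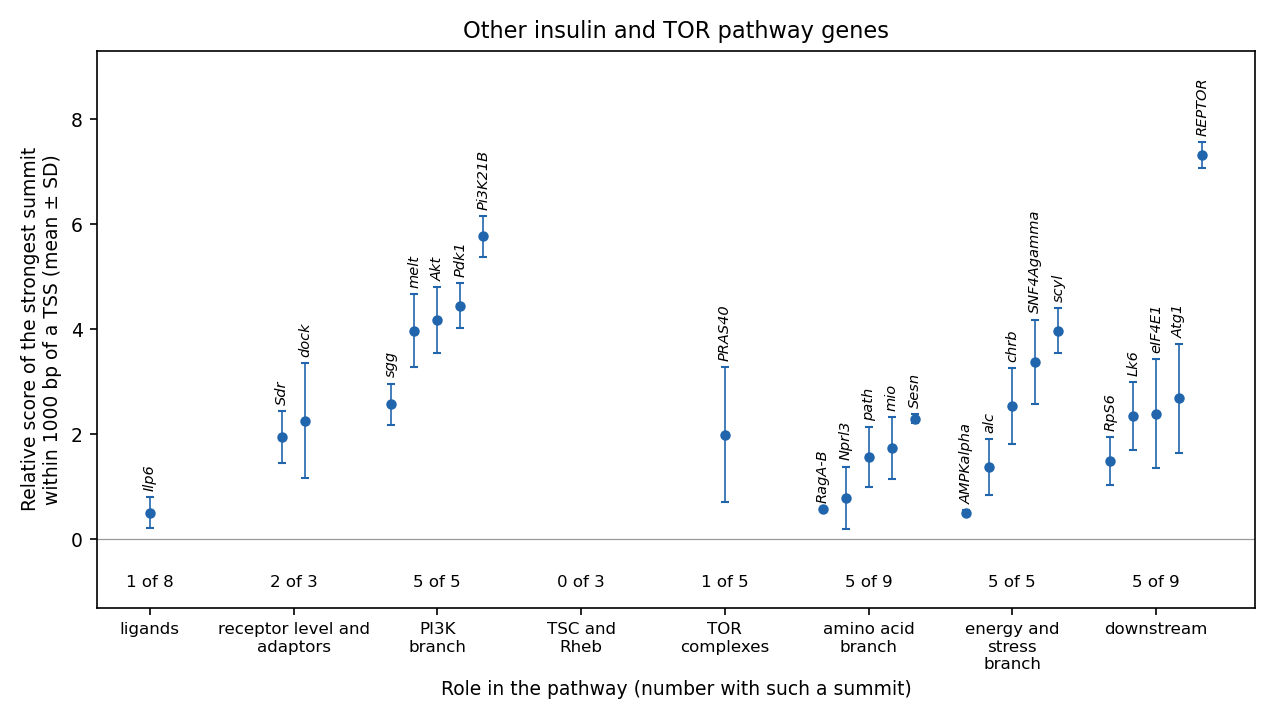
Relative score (mean ± SD over the replicates that held it) of the highest-scoring optimal summit within 1000 bp of a TSS, for the 24 of 47 further pathway genes that had one, by role. The PI3K branch has such a summit at 5 of 5 genes and TSC and Rheb at 0 of 3, and REPTOR is highest at 7.31.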

How the data were processed

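ChIP-seq peaks from 3 biological replicates of 1 group were used, with library fragments of 200 to 300, 175 to 275 and 175 to 250 bp in replicates 1 to 3, per the labels. Per the files' names and listing, the authors called peaks against a control alignment, both for each replicate and for the replicates pooled, and thresholded them by irreproducible discovery rate (IDR) into an optimal list. Neither peak caller nor aligner is given in the sources used here. The score per peak and the summit offset were deposited by the authors. Each score is comparable within its list alone. The lists on dm6 were used and those on dm3 were not. Summits (start plus offset, 1-based) were set against genes of Ensembl release 115 on the same assembly and RefSeq sequence. A summit in a replicate within 200 bp of an optimal summit was its match (the nearest where several), and means with SD are over replicates with a match. Promoters were within 500 bp of a TSS. Listed names were matched by symbol, Tor through its synonym mTor. A gene of the wider list is not reported here. The members and lists were chosen with earlier results of these data known. Named were all members, for each its 3 highest-scoring summits and others that bear on a TSS or on agreement between replicates (chosen after their values were seen), and the 2 highest-scoring genes in each role group. Atg1 and eIF4E1 were named beside Lk6 after their values were seen. No test was made. Read counts were not used here, so no depth or interval is given. Python 3.11.15 with pandas 2.3.3, numpy 2.4.6 and matplotlib 3.10.9 was used; word search and gene assignment were checked on made-up sequence.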

Additional observations from a re-analysis of the deposited data

How the results depend on the processing

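The number of members with a summit, 5 of 8, was 5 without a flank, with a flank of 1 kb, over all peaks called on the replicates together and when each replicate was left out. It was 4 among the 5069 highest-scoring peaks of the optimal list, which lost S6k, and 6 with a flank of 10 kb, which added Pi3K92E. The 43 summits became 24 among those 5069, 139 over all peaks called together, 28 with support in every replicate and 25 when a summit counted for the gene of the nearest TSS alone. The last of these left 6 of 18 at InR. Without a flank the 43 became 33, with 17 of 18 at InR, 8 of 14 at foxo and 3 of 6 at ImpL2. The 14 summits within 1000 bp of a member TSS became 7 within 500 bp, 9 among those 5069 and 25 over all peaks called together. The share with GAGAG, 53.5%, was 75.0% among those 5069 (51.8% of all such summits), 37.4% over all peaks called together (33.0%), 67.9% with support in every replicate (50.7%), 23.3% within 50 bp (28.5%) and 67.4% within 250 bp (64.1%). Leaving out each replicate, which keeps summits supported in both others, gave 60.6% to 66.7%. Under that rule InR kept 18 of 18 summits, foxo 5 or 6 of 14 and ImpL2 4 or 5 of 6. Thor kept 1 of 2 without replicate 2 and without replicate 3, and S6k 1 of 3 without replicate 2 and 2 of 3 without either other. Taking the strongest instead of the nearest replicate summit within 200 bp, an alternative chosen after seeing the data, changed the values of 2 of the 43 summits, neither of them the highest-scoring of its gene. Without replicate 3 Thor (2.21) stood above foxo (1.99) by strongest summit. With scores divided by the median of the whole list the values were larger, 37.6 at InR and 3.18 at S6k, in the same order. Since depth is unknown, a site below a list's floor cannot be told from an unbound one. No paired analysis was possible because the series has a single group.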

Other observations

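Weaker sites outside the optimal list also lay at the bound genes. A total of 17 sites had a summit within 200 bp in every replicate's full list but no optimal summit that near. InR held 10 of them, ImpL2 3, Thor 2, and foxo and S6k 1 each. None was possible at chico, Pi3K92E or Tor, where no more than 1 replicate had any summit. Such sites were not counted at other genes, so no share over all genes can be given. The full lists also hold background, and placed 45, 51 and 48 summits at InR in replicates 1, 2 and 3. Each of the 17 sites was set at a summit of replicate 1. Its values in replicates 2 and 3 are those of the strongest, not the nearest, summit within 200 bp. The highest of the 17 sites was in Thor, at 2L:3479255, 733 bp from a TSS, with relative scores of 1.00, 0.281 and 1.29 in replicates 1, 2 and 3 (0.86 ± 0.522, SD, n = 3). It shares its replicate 3 value with the optimal Thor summit at 2L:3479028. A site in InR at 3R:21590305, 114 bp from the last TSS, scored 0.374, 0.293 and 0.385 (0.35 ± 0.05, SD, n = 3). Its values in replicates 2 and 3 are those matched to the optimal summit at 3R:21590082, and every replicate also had a stronger summit within 200 bp of that optimal summit. The weakest of the 17, in ImpL2 at 3L:4223883, averaged 0.143 ± 0.0885 (SD, n = 3).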
